A study of Mus musculus with 16 samples.

Results

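Numbered Zfp genes are mouse genes named Zfp plus a number, a naming class for proteins with zinc-finger domains. The table of total RNA held 41258 entries, and 370 of them were numbered Zfp genes when Zfp42 (Rex1) and Zfp352, which have names of their own in pluripotency and 2-cell biology, were left aside. The 215 genes described here were those with a mean of at least 3 FPKM (fragments mapped to a gene, scaled to its length and to the size of the library) over the 8 libraries. The mean level therefore chose the genes, and it is given only as a description. Just inside that limit were Zfp526 at 3.03, Zfp341 at 3.04 and Zfp672 at 3.08 FPKM, and just outside it were Zfp58 at 2.998, Zfp382 at 2.98 and Zfp995 at 2.97 FPKM. All 215 genes also passed the filter of the test (2 or more libraries at 1 FPKM or above), and 212 had at least 1 FPKM in every library. In 174 genes all 4 group means were at 3 FPKM or more, and 17 genes would have had a mean under 3 FPKM without the group in which they were highest. That group was WT 48 h for 9 of the 17 (Zfp36, Zfp251, Zfp358, Zfp467, Zfp605, Zfp606, Zfp799, Zfp882 and Zfp956), Dgcr8-/- 2iL for 5 (Zfp526, Zfp827, Zfp944, Zfp960 and Zfp986), Dgcr8-/- 48 h for Zfp341 and Zfp672, and WT 2iL for Zfp747. These 17 entered through the group where they were high, so their differences from that group are given below as descriptions, with no test, although they are among the counts.

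Mouse embryonic stem cells of a 129/C57BL/6 background, at passages 9-11, were profiled in 4 groups of 2 libraries each. Wild-type (WT) cells and Dgcr8-/- cells, which lack the RNA-binding partner of Drosha and so most microRNAs, were each collected from 2iL culture and after 48 h of differentiation in N2B27 with bFGF and KSR. 2iL is a serum-free culture with 2 kinase inhibitors and leukaemia inhibitory factor that holds the cells in naive pluripotency, and the series asks how microRNAs take part in leaving that state. Each genotype was 1 line (v65 for WT and ES1 for Dgcr8-/-), so an effect of the deletion and a difference between the lines cannot be told apart. The series calls its pairs of libraries biological replicates, without saying what was repeated, so p-values measure the spread between these libraries.

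Many genes of this class encode KRAB zinc-finger proteins. An array of fingers reads DNA, and the KRAB domain recruits Trim28 (KAP1), which brings the histone methyltransferase Setdb1, heterochromatin protein 1 and DNA methylation to the bound site. In embryonic stem cells this system silences retroelements and protects the methylation marks of imprinted genes. The KRAB genes lie in clusters that arose by local duplication, so neighbours are often close copies of each other. Other numbered Zfp genes have no KRAB domain and encode transcription factors, partners of chromatin complexes, RNA-binding proteins and ubiquitin ligases.

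Dgcr8 itself was at 18.3, 19.2, 20.7 and 20.9 FPKM in the WT libraries and at 9.11, 9.33, 7.84 and 7.80 FPKM in the Dgcr8-/- libraries; which exons hold the remaining reads was not analysed here. All 7 naive markers listed (such as Nanog, Esrrb and Klf4) fell at 48 h in both genotypes and all 4 formative markers (Pou3f1, Otx2, Fgf5 and Dnmt3b) rose. The summed naive markers went from 626 and 644 to 26.2 and 24.5 FPKM in WT cells, and from 847 and 884 to 318 and 301 FPKM in Dgcr8-/- cells. Of 7 markers of 2-cell-like cells 5 were tested, and their list summed to 1.85 to 3.21 FPKM in the WT and 11.4 to 20.4 FPKM in the Dgcr8-/- libraries. Of 10 fibroblast and feeder markers 3 were tested, with list sums of 2.52 to 3.36 FPKM in 2iL. At 48 h the sums were 21.9 and 22.3 FPKM in WT cells and 7.16 and 7.65 FPKM in Dgcr8-/- cells. The 3 tested were Thy1, Tagln and Acta2, which all rose at 48 h in WT cells. They reached 9.20 and 9.26, 9.02 and 9.38, and 2.58 and 1.93 FPKM there. In Dgcr8-/- cells at 48 h Thy1 was at 5.84 and 5.35 and Tagln at 0.902 and 0.928 FPKM, and Acta2 was at 0. Among the untested markers Col1a1, Col1a2 and Col3a1 stayed at or below 0.464 FPKM in every library, and Postn and Lum at or below 0.0633 FPKM. Fbn1 went from 0.154 and 0.201 to 0.661 and 0.738 FPKM in WT cells. In Dgcr8-/- cells Fbn1 went from 0.211 and 0.234 to 0.460 and 0.546 FPKM. Pdgfrb was highest in Dgcr8-/- cells in 2iL, at 0.563 and 0.433 FPKM. Of 7 primitive endoderm markers 1 was tested (list sums of 1.62 to 3.04 FPKM), and of 5 neuroectoderm markers 3 (6.53 to 25.6 FPKM). The part of these cell types in the results below was not tested. In bulk RNA, fewer cells of a type and less RNA per cell cannot be told apart.

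The 215 genes were mostly expressed at low levels, with a median of 7.50 FPKM and a range of 3.03 to 179 FPKM. Their means were under 5 FPKM in 68 genes, at 10 FPKM or more in 82 and at 50 FPKM or more in 4. The 5 highest were Zfp57 at 179, Zfp207 at 109, Zfp428 at 75.4, Zfp106 at 72.1 and Zfp981 at 44.1 FPKM. The 215 genes together made up 0.545% and 0.528% of all FPKM in WT cells in 2iL, and 0.446% and 0.456% at 48 h. For Dgcr8-/- cells these shares were 0.573% and 0.540% in 2iL and then 0.542% and 0.557% after 48 h. The share was thus lower at 48 h in both WT libraries, whereas the shares of the Dgcr8-/- groups overlapped. WT cells at 48 h held the lowest group mean of 77 genes and the highest of 67, counts that were not made over all genes.

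In WT cells, 71 of the 215 genes fell and 43 rose at 48 h. The genes that fell were 33.0% of the class, against a background of 28.5% of the 9876 genes with a mean of at least 3 FPKM and 25.6% of all 13172 genes tested. Those that rose were 20%, against 29.0% and 30.9%. A gene was called when its adjusted p was under 0.05 (limma on log2(FPKM + 1), Benjamini-Hochberg over all genes tested), and differences below are log2 differences on that scale. Among genes called with at least a 2-fold difference, 19 of the class fell (8.84%, against 6.65% of the genes at 3 FPKM or more) and 2 rose (0.930%, against 5.53%). In Dgcr8-/- cells 50 genes fell (23.3%, against 23.1%) and 38 rose (17.7%, against 26.4%), and at 2-fold or more 4 fell (1.86%, against 3.67%) and 3 rose (1.40%, against 4.48%). The median difference over the class was -0.06 in WT and -0.03 in Dgcr8-/- cells, beside 0.01 in both for the genes at 3 FPKM or more.

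Between genotypes in 2iL, 42 genes were higher in Dgcr8-/- cells (19.5%, against 30.4% of the genes at 3 FPKM or more) and 75 were lower (34.9%, against 37.3%). At 48 h 64 were higher (29.8%, against 34.0%) and 79 were lower (36.7%, against 40.7%). The interaction, which is the 48 h change in Dgcr8-/- cells minus that in WT cells, was above 0 in 48 genes (22.3%, against 22.9%) and below 0 in 30 (13.95%, against 19.6%). Of the 215 genes, 34 were called in none of these 5 comparisons, 71 in neither genotype's 48 h change and 48 in neither comparison of genotypes. Such joint counts were not made over all genes, so they only describe the class. The shares of genes called lower in Dgcr8-/- cells and of positive interactions lay near their backgrounds, and the class held fewer genes called higher than its background in all comparisons of 2 groups.

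**Figure D1:**
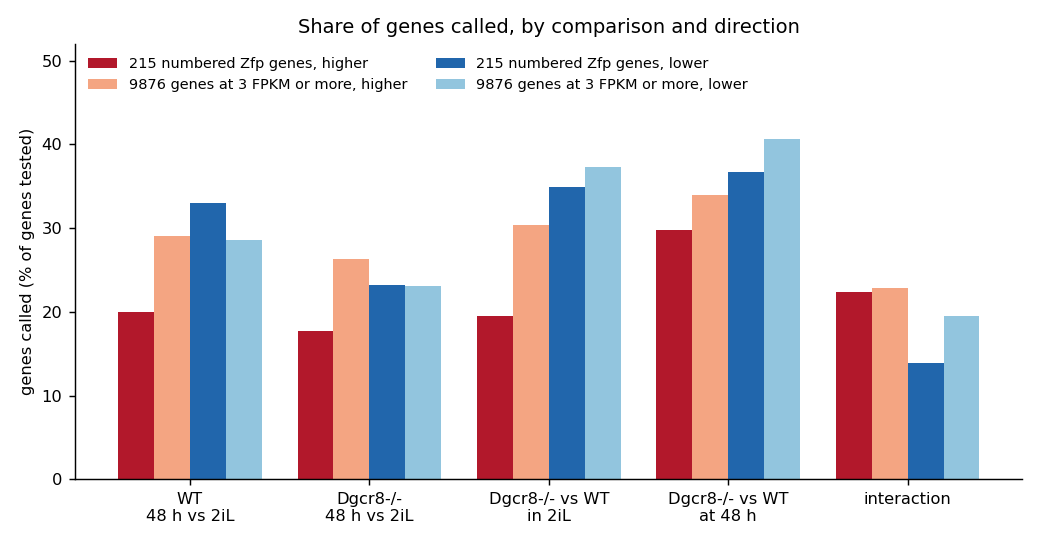
Bars give the percentage of genes called higher (reds) or lower (blues) in each comparison, for the 215 numbered Zfp genes (dark) and the 9876 genes with a mean of at least 3 FPKM (light); no test compares the bars. In the WT 48 h change 33.0% of the numbered Zfp genes were lower and 20% higher, against 28.5% and 29.0%.

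The counts of the role groups below stand beside the shares just given for the genes at 3 FPKM or more, and no test compares them. The first group by role was 6 genes that guard imprints or silence retroelements. Zfp57 (ENSMUSG00000036036, chr17:37001163-37010729, mm10), a KRAB protein that keeps the methylation of imprinted control regions, was the most abundant gene of the class. It was at 236 and 229 FPKM in WT cells in 2iL and 46.9 and 51.6 FPKM at 48 h, whereas Dgcr8-/- cells had 220 and 222 FPKM in 2iL and 220 and 210 FPKM at 48 h. The WT 48 h libraries lay far below the 6 others. Zfp57 fell in WT cells by 2.22 (SE 0.05, adjusted p = 1.5e-07), was not called in Dgcr8-/- cells (-0.04, adjusted p = 0.61), and had an interaction of 2.18 (SE 0.07, adjusted p = 3.2e-06).

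Zfp445, the second KRAB protein known to maintain imprints, had 15.0 and 15.7 FPKM in WT cells in 2iL and 19.9 and 19.8 FPKM at 48 h. It rose in WT cells by 0.36 (adjusted p = 0.0013), and in Dgcr8-/- cells its 12.3 and 13.1 against 13.4 and 14.1 FPKM were not called (0.11, adjusted p = 0.16). Zfp445 was lower in Dgcr8-/- cells in both conditions (-0.25 and -0.50), and its interaction of -0.25 (adjusted p = 0.041) was lost in 7 of the 8 fits that left out 1 library, all but the one without Dgcr8-/- 2iL library 1 (adjusted p from 0.056 to 0.13). Zfp57 and Zfp445, which share this role, thus moved in opposite directions in WT cells.

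Zfp819 (chr7:43607135-43618279), a KRAB gene linked to retroelement silencing in pluripotent cells, had 13.3 and 12.6 FPKM in WT cells in 2iL and 2.06 and 2.05 FPKM at 48 h. In Dgcr8-/- cells it had 12.2 and 12.8 FPKM and then 4.33 and 4.59 FPKM. It fell in both genotypes, by 2.19 (SE 0.07, adjusted p = 4.5e-07) in WT and by 1.31 (SE 0.07, adjusted p = 8.4e-06) in Dgcr8-/- cells, and the smaller fall gave an interaction of 0.88 (adjusted p = 0.00041). Zfp568, which represses a placental promoter of Igf2, had 36.2 and 33.2 FPKM in WT cells in 2iL and 27.2 and 27.7 FPKM at 48 h, but 32.8 and 30.6 and then 40.3 and 42.2 FPKM in Dgcr8-/- cells. It fell in WT cells by 0.33 (adjusted p = 0.0025) and rose in Dgcr8-/- cells by 0.37 (adjusted p = 0.0018), with an interaction of 0.70 (adjusted p = 0.00063).

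Zfp932 (chr5:109996502-110012266), a KRAB gene tied to silencing of endogenous retroviruses, differed between genotypes rather than over time. It had 16.03, 17.4, 20.8 and 17.5 FPKM in the WT libraries (2iL, then 48 h) and 6.33, 4.33, 4.37 and 3.81 FPKM in the Dgcr8-/- libraries, and the 2 genotypes did not overlap. The difference was -1.503 in 2iL (SE 0.16, adjusted p = 0.00014) and -1.98 at 48 h (adjusted p = 2.3e-05), with no call for either 48 h change (adjusted p = 0.36 and 0.16). Zfp809, which binds the primer binding site of murine leukaemia viruses, stayed between 10.4 and 12.9 FPKM in all 8 libraries, and neither 48 h change was called (adjusted p = 0.27 and 0.4). Its differences between genotypes of 0.18 and 0.19 passed at adjusted p = 0.027 and 0.016, but were lost without any 1 library of the 2iL groups (adjusted p up to 0.088), and without WT or Dgcr8-/- 48 h library 2 (adjusted p up to 0.1). Over the 6 genes, 1 rose and 3 fell in WT cells, 1 rose and 1 fell in Dgcr8-/- cells, and the median differences were -0.20 and -0.05. Zfp708, the seventh gene of this list, lay under the level limit.

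The second group was 7 transcription factors linked to pluripotency. Zfp296 (ENSMUSG00000011267, chr7:19577287-19580656), a partner of Klf4 that promotes reprogramming, showed the largest WT fall of the 215 genes. It had 49.6 and 46.2 FPKM in WT cells in 2iL and 6.04 and 5.59 FPKM at 48 h. The Dgcr8-/- libraries had 51.98 and 52.4 FPKM in 2iL and 41.9 and 42.2 FPKM at 48 h, so they were close to WT cells in 2iL and far above them at 48 h. Zfp296 fell by 2.84 in WT cells (SE 0.05, adjusted p = 8.2e-08) and by 0.31 in Dgcr8-/- cells (adjusted p = 0.0031), with an interaction of 2.54 (SE 0.08, adjusted p = 1.9e-06), the highest of the class. In 2iL the genotypes were not called different (0.12, adjusted p = 0.086).

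The promoter window of Zfp296 is shown because it holds an octamer, the letters bound by Oct4-type factors, and because this gene changed most. It covers 300 bases around the RefSeq start, mostly upstream, at chr7:19577037-19577336 (GRCm38.p6, plus strand), and the capitals mark the match, which reads ATGCAAAT on the opposite strand.
Zfp296: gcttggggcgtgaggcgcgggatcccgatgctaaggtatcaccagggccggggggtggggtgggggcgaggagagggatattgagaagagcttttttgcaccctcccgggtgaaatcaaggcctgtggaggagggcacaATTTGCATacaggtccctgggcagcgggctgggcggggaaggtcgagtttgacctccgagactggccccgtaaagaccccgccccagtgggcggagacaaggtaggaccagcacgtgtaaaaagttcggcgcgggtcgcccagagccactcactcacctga
Windows were matched by symbol for 177 of the 215 genes. A gene was counted if any of its windows held the letters, and 38 of these genes had several windows, which gives more places to match. The octamer ATGCAAAT, searched on both strands, was found for 5 of these 177 genes (Zfp207, Zfp263, Zfp296, Zfp345 and Zfp428), or 2.83%. Over all 27025 genes with a window it was found for 532, or 1.97%. The letters TCAAGGTCA, of the kind bound by Esrrb, were found for 1 of 177 genes (0.565%) and for 126 of all (0.466%). The CCAAT box was found for 55.9% of the 177 genes against 41.1% of all, and the GC box GGGCGG for 49.7% against 38.2%. Neither search overlaps the octamer. A match is a description of letters, not of binding.

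Zfp706, a small zinc-finger protein that came out of a screen for factors needed to leave self-renewal, was low in Dgcr8-/- cells at both times. It had 32.9 and 32.6 FPKM in WT cells in 2iL and 27.7 and 27.8 FPKM at 48 h, against 12.6, 13.2, 12.7 and 12.8 FPKM in the 4 Dgcr8-/- libraries. The genotype difference was -1.27 in 2iL (SE 0.05, adjusted p = 2e-06) and -1.06 at 48 h (adjusted p = 1.4e-06); its WT fall of 0.23 was also called (adjusted p = 0.0045). Its interaction of 0.21 (adjusted p = 0.037) was lost in 7 of the 8 fits without 1 library, all but that without Dgcr8-/- 2iL library 2 (adjusted p from 0.075 to 0.11). Zfp148, a factor of GC-rich promoters, was the reverse, with 7.83, 6.54, 4.15 and 4.51 FPKM in WT and 17.2, 15.7, 11.1 and 11.0 FPKM in Dgcr8-/- libraries. It was higher in Dgcr8-/- cells by 1.09 in 2iL (adjusted p = 5.1e-05) and by 1.18 at 48 h (adjusted p = 2.2e-05), and fell in both genotypes, by 0.62 and 0.53.

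Zfp219 had 29.0 and 29.5 FPKM in WT cells in 2iL and 33.7 and 33.5 FPKM at 48 h, against 18.2, 20.1, 17.7 and 17.3 FPKM in Dgcr8-/- libraries. It was lower in Dgcr8-/- cells by 0.59 and 0.91 on the log2 scale (adjusted p = 9e-05 and 6.7e-06), and the gene overlaps Arhgef40 and Tmem253. Its WT rise of 0.19 (adjusted p = 0.021) was lost without any 1 of the 4 WT libraries (adjusted p up to 0.089), and its interaction of -0.32 (adjusted p = 0.015) without WT 48 h library 1 or Dgcr8-/- 48 h library 2 (adjusted p = 0.052 and 0.053). Zfp64 fell in both genotypes, from 44.7 and 42.9 to 32.7 and 32.2 FPKM in WT (-0.42, adjusted p = 0.0002) and from 32.0 and 33.2 to 25.8 and 24.8 FPKM in Dgcr8-/- cells (-0.35, adjusted p = 0.00071). Zfp281, which is needed for the exit from the naive state, rose in Dgcr8-/- cells from 16.9 and 16.3 to 20.5 and 20.5 FPKM (0.29, adjusted p = 0.0042). In WT cells it was not called (0.08, adjusted p = 0.24), and the interaction of 0.21 was not called (adjusted p = 0.069). Zfp143, a promoter-binding transcription factor, stayed at 8.05 to 9.34 FPKM in all libraries and was called in no comparison. Of the 7 genes, 1 rose and 4 fell in WT cells, and 1 rose and 3 fell in Dgcr8-/- cells.

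The third group was 12 partners of chromatin complexes. In WT cells 5 rose and 2 fell at 48 h, and in Dgcr8-/- cells 3 rose and 3 fell. The Dgcr8-/- falls include Zfp827, which reached the level limit only through Dgcr8-/- 2iL, so that count is partly fixed by the limit. Zfp687, Zfp592 and Zfp532, which share a complex with Zmynd8, were all called higher at 48 h in WT cells, whereas in Dgcr8-/- cells Zfp687 fell, Zfp532 rose and Zfp592 was not called (0.08, adjusted p = 0.66). Zfp687 went from 15.3 and 14.3 to 21.9 and 22.5 FPKM in WT cells, a rise of 0.55 (adjusted p = 0.0021), and from 16.7 and 20.6 to 14.8 and 13.7 FPKM in Dgcr8-/- cells, a called fall of 0.36 (adjusted p = 0.018). That fall was lost without Dgcr8-/- 2iL or 48 h library 2 (adjusted p = 0.061 and 0.096), as was the higher 2iL level in Dgcr8-/- cells (0.31) without library 2 of either 2iL group (adjusted p = 0.11 and 0.12). The interaction of Zfp687 was -0.91 (SE 0.14, adjusted p = 0.0017), and the gene overlaps Pi4kb.

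Zfp592 had 5.78 and 5.63 FPKM in WT cells in 2iL against 10.7 and 9.41 in Dgcr8-/- cells (0.72, adjusted p = 0.0026). Its WT rise to 7.91 and 9.90 FPKM (0.56, adjusted p = 0.01) was lost without WT 48 h library 2 (0.41, adjusted p = 0.062). Zfp532 rose in Dgcr8-/- cells, from 24.6 and 23.8 to 34.6 and 35.6 FPKM (0.52, adjusted p = 0.0011). Its WT rise of 0.26 (adjusted p = 0.02) was lost without WT 2iL or WT 48 h library 2 (adjusted p = 0.085 and 0.1).

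Zfp462, which recruits the H3K9 methyltransferases G9a and GLP, had 37.5, 32.3, 35.1 and 38.2 FPKM in WT libraries, a change of 0.07 (adjusted p = 0.65). In Dgcr8-/- cells it rose from 24.6 and 23.2 to 33.5 and 42.9 FPKM (0.64, adjusted p = 0.004), from below WT cells in 2iL (-0.52, adjusted p = 0.007). Its interaction of 0.57 (adjusted p = 0.032) was lost in 6 of the 8 fits without 1 library (adjusted p from 0.052 to 0.097), and was kept without WT 2iL library 2 and without Dgcr8-/- 48 h library 1. Zfp644, another partner of G9a and GLP, rose in both genotypes, from 14.1 and 13.9 to 19.2 and 24.2 FPKM in WT (0.59, adjusted p = 0.007) and from 11.4 and 9.99 to 17.9 and 14.4 FPKM in Dgcr8-/- cells (0.55, adjusted p = 0.012). The Dgcr8-/- rise of Zfp644 was lost without Dgcr8-/- 2iL library 2 or 48 h library 1 (adjusted p = 0.066 and 0.071). Its lower levels in Dgcr8-/- cells were lost without any 1 of the 2iL libraries (adjusted p up to 0.2) and without library 2 of either 48 h group (adjusted p = 0.16).

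Zfp827, which brings the NuRD remodeller to telomeres, fell by 1.17 in WT cells (2.97 and 3.38 to 0.904 and 0.796 FPKM, adjusted p = 3.8e-05) and went from 6.99 and 6.83 to 2.28 and 2.62 FPKM in Dgcr8-/- cells, a difference of -1.20. It reached the level limit only through the Dgcr8-/- 2iL libraries, so that difference and the one of 0.92 between genotypes in 2iL carry no test here. Zfp277, a Polycomb partner, fell in both genotypes, from 18.2 and 18.4 to 12.1 and 13.3 FPKM (-0.49) and from 15.5 and 17.4 to 9.40 and 9.27 FPKM (-0.75). Zfp609, a partner of the cohesin loader, rose in WT cells from 12.3 and 11.0 to 18.9 and 18.6 FPKM (0.64, adjusted p = 0.00054) and was at 11.4, 9.74, 11.1 and 11.7 FPKM in Dgcr8-/- libraries, with an interaction of -0.54 (adjusted p = 0.01). Zfp335, a component of an H3K4 methyltransferase complex, was higher in Dgcr8-/- cells in 2iL (0.34) and at 48 h (0.59, adjusted p = 0.00038). Zfp217 of the CoREST complex, Zfp410, the activator of Chd4, and the SUMO ligase Zfp451 were called in no comparison, with levels of 14.8 to 19.0, 8.73 to 10.9 and 13.2 to 15.8 FPKM.

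The fourth group was 11 proteins of RNA, ribosomes and ubiquitin, of which 2 rose and 1 fell at 48 h in each genotype. The WT rises include Zfp36, which reached the level limit only through WT 48 h, so that count is partly fixed by the limit. Zfp326, which couples RNA polymerase II to splicing, rose from 12.0 and 10.7 to 28.2 and 25.2 FPKM in WT cells (1.17, SE 0.07, adjusted p = 1.3e-05). In Dgcr8-/- cells it went from 18.7 and 18.8 to 22.5 and 23.7 FPKM (0.29, adjusted p = 0.016), a rise lost without any 1 Dgcr8-/- library but 48 h library 1 (adjusted p from 0.055 to 0.089). Its interaction was -0.88 (adjusted p = 0.00061), and it was higher in Dgcr8-/- cells in 2iL by 0.68 (adjusted p = 0.00017). At 48 h its difference of -0.20 (adjusted p = 0.045) was lost in 5 of the 8 fits without 1 library (adjusted p up to 0.26, without WT 48 h library 1). Zfp36 (tristetraprolin), which triggers decay of AU-rich mRNAs, had 3.22 and 2.51 FPKM in WT cells in 2iL and 6.37 and 6.69 FPKM at 48 h, the group through which it reached the level limit, so its WT difference of 0.97 and interaction of -0.71 carry no test here. The Dgcr8-/- values of 2.31 and 2.67 and then 3.03 and 3.30 FPKM were not called different (0.26, adjusted p = 0.098).

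Between genotypes, 2 genes of this group were higher and 5 lower in Dgcr8-/- cells in 2iL, and 2 were higher and 6 lower at 48 h, against 30.4% and 37.3% of the genes at 3 FPKM or more in 2iL and 34.0% and 40.7% at 48 h. The 6 lower at 48 h include Zfp36, whose difference from WT 48 h carries no test. Zfp593, a factor of ribosomal subunit assembly, had 18.5, 18.7, 16.3 and 17.0 FPKM in WT and 6.74, 9.00, 9.36 and 7.75 FPKM in Dgcr8-/- libraries (-1.16 in 2iL, SE 0.13, adjusted p = 0.00019; -0.89 at 48 h). Zfp106, an RNA-binding protein of neurons and muscle, had 87.6, 99.5, 87.2 and 87.9 FPKM in WT and 56.8, 57.5, 46.0 and 54.6 FPKM in Dgcr8-/- libraries (-0.70 and -0.79, adjusted p = 0.00034 and 0.00013). Zfp207 (BuGZ), a spindle assembly factor, had 127, 122, 116 and 114 FPKM in WT and 93.3, 97.4, 99.5 and 99.1 FPKM in Dgcr8-/- libraries (-0.38 and -0.21), and no Dgcr8-/- library reached the lowest WT library. Its small WT fall (-0.12, adjusted p = 0.042) and its interaction (0.17, adjusted p = 0.043) were lost in 6 and 7 of the 8 fits without 1 library, the WT fall only being kept without either Dgcr8-/- 2iL library and the interaction only without Dgcr8-/- 2iL library 2. The ubiquitin ligase Zfp91 was higher in Dgcr8-/- cells, with 15.1, 14.2, 13.9 and 14.5 against 24.2, 24.7, 24.8 and 26.4 FPKM (0.70 and 0.81, adjusted p = 4e-05 and 1.2e-05). Zfp638, which silences unintegrated retroviral DNA, rose in Dgcr8-/- cells from 21.6 and 20.6 to 27.6 and 27.9 FPKM (0.38, adjusted p = 0.00063) and stayed at 20.4 to 21.3 FPKM in WT libraries (interaction 0.40, adjusted p = 0.0034).

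Zfp598, the ligase that senses collided ribosomes, was lower in Dgcr8-/- cells by 0.30 and 0.44 on the log2 scale (adjusted p = 0.0041 and 0.00046). Its fall of 0.20 in Dgcr8-/- cells (adjusted p = 0.029) was lost without any 1 Dgcr8-/- library (adjusted p up to 0.11). Zfp622 (27.6 to 30.4 FPKM), which matures the large ribosomal subunit, and Zfp346 (12.8 to 19.3 FPKM), which binds double-stranded RNA, were called in no comparison. Zfp830, a splicing factor, had an interaction of 0.34 (adjusted p = 0.027) and a 2iL difference of -0.21 (adjusted p = 0.031). The interaction was lost in 4 of the 8 fits without 1 library (library 1 of either 2iL group or library 2 of either 48 h group, adjusted p up to 0.092) and the 2iL difference in 2 (library 1 of either 2iL group, adjusted p = 0.13 and 0.16).

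The fifth group was developmental factors, of which 4 of 10 listed genes reached the level limit. All 4 had an interaction above 0 (background 22.9%) and 3 of them rose in Dgcr8-/- cells (background 26.4%); the other 6 listed genes lay under the limit, and 4 genes are too few to describe the list. Zfp365 (chr10:67886105-67912662), a protein of neuronal centrosomes, had 4.24 and 2.81 FPKM in WT cells in 2iL and 5.92 and 6.22 FPKM at 48 h, and 2.27 and 2.33 and then 9.03 and 9.59 FPKM in Dgcr8-/- cells. It rose by 0.66 in WT cells (adjusted p = 0.0056) and by 1.64 in Dgcr8-/- cells (SE 0.14, adjusted p = 8.8e-05), with an interaction of 0.98 (adjusted p = 0.0069). Zfp423 (chr8:87661810-87962053), a partner of Ebf and Smad factors, had 12.4, 8.66, 11.8 and 12.6 FPKM in WT libraries and rose in Dgcr8-/- cells from 5.35 and 5.65 to 14.9 and 18.6 FPKM (1.44, SE 0.16, adjusted p = 0.00033; interaction 1.23, adjusted p = 0.0047). Both had their lowest means in Dgcr8-/- cells in 2iL and their highest in Dgcr8-/- cells at 48 h, where the genotype difference of Zfp423 was not called (0.42, adjusted p = 0.051).

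Zfp516, a factor of brown fat, had 4.82, 5.23, 4.61 and 4.93 FPKM in WT libraries and rose in Dgcr8-/- cells from 4.10 and 3.66 to 8.24 and 8.44 FPKM (0.94, adjusted p = 8.8e-05; interaction 1.00, adjusted p = 0.0005). Zfp704 differed from these 3 in that it fell in both genotypes, from 6.75 and 6.53 to 1.29 and 1.34 FPKM in WT (-1.72, adjusted p = 2.3e-06) and from 13.4 and 12.2 to 6.19 and 6.69 FPKM in Dgcr8-/- cells (-0.89, adjusted p = 8.8e-05). The lower 2iL level of Zfp365 in Dgcr8-/- cells (-0.44, adjusted p = 0.029) was lost without WT 2iL library 1 or either Dgcr8-/- 2iL library (adjusted p up to 0.1), and its higher 48 h level (0.54, adjusted p = 0.01) without Dgcr8-/- 48 h library 2 (adjusted p = 0.051). The lower 2iL level of Zfp516 (-0.30, adjusted p = 0.013) was lost without library 2 of either 2iL group (adjusted p = 0.066 and 0.07). The neuroectoderm marker Nes was at 2.65 and 2.71 FPKM in Dgcr8-/- cells in 2iL and 13.4 and 14.2 FPKM at 48 h, and Pax6 at 3.46 and 3.50 and then 6.09 and 6.75 FPKM. In WT cells Nes rose from 6.63 and 6.74 to 21.9 and 21.5 FPKM, and Pax6 fell from 2.16 and 2.13 to 1.55 and 0.884 FPKM. At 48 h Nes was lower in Dgcr8-/- than in WT cells (-0.62, adjusted p = 6.2e-05) and Pax6 was higher (1.76, adjusted p = 2.5e-05). Sox1, also tested, rose by 0.64 in WT and 1.22 in Dgcr8-/- cells. Sox1 was not called different between genotypes at 48 h (-0.05, adjusted p = 0.67). The called interactions of Nes, Pax6 and Sox1 were 0.44, 1.25 and 0.58.

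**Figure D2:**
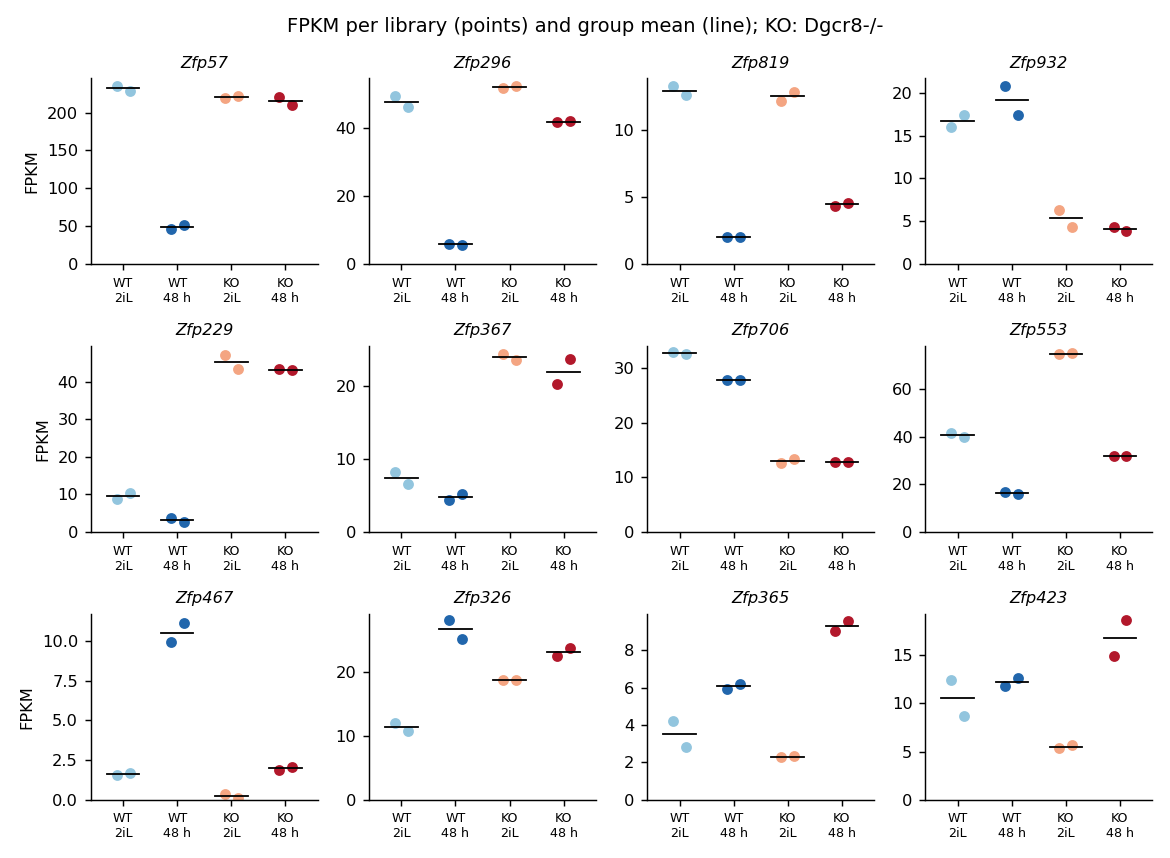
Points are the FPKM of each library and lines the means of the 4 groups (KO is Dgcr8-/-, 2 libraries per group) for 12 numbered Zfp genes, each on its own linear axis from 0. Zfp57 and Zfp296 were low only in WT cells at 48 h (46.9 and 51.6, and 6.04 and 5.59 FPKM), Zfp932 and Zfp706 were low in both Dgcr8-/- groups, and Zfp365 and Zfp423 were highest in Dgcr8-/- cells at 48 h.

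The partners through which KRAB zinc-finger proteins act were listed as 24 genes outside the class. In WT cells 8 rose and 9 fell at 48 h, and in Dgcr8-/- cells 11 rose and 3 fell. Over the genes at 3 FPKM or more 29.0% rose and 28.5% fell in WT cells, and 26.4% and 23.1% in Dgcr8-/- cells. Trim28, the KRAB-binding corepressor, had 714 and 677 FPKM in WT cells in 2iL and 485 and 475 FPKM at 48 h, and 470 and 497 and then 544 and 538 FPKM in Dgcr8-/- cells. It fell in WT cells by 0.54 (adjusted p = 5.6e-05) and rose in Dgcr8-/- cells by 0.16 (adjusted p = 0.023), with an interaction of 0.70 (adjusted p = 0.0002). Setdb1, the H3K9 methyltransferase it recruits, was higher in Dgcr8-/- cells in both conditions (48.2 and 48.3 against 32.5 and 30.4 FPKM in 2iL, 0.60, adjusted p = 7.1e-05) and fell in both genotypes, by 0.35 and 0.27. Fam208a (Tasor) of the HUSH silencing complex went from 18.9 and 18.1 to 10.2 and 11.1 FPKM in WT cells and from 14.5 and 14.5 to 18.5 and 18.6 FPKM in Dgcr8-/- cells, a fall of 0.74 against a rise of 0.34 (interaction 1.07, adjusted p = 7.9e-05). Pphln1, of the same complex, rose in WT cells by 1.70 (8.74 and 9.01 to 31.0 and 31.1 FPKM, adjusted p = 3.1e-07), with no call in Dgcr8-/- cells (0.11, adjusted p = 0.1). Between genotypes in 2iL 5 of the 24 were higher and 15 lower in Dgcr8-/- cells, and at 48 h 7 were higher and 13 lower. Over the genes at 3 FPKM or more 30.4% were higher and 37.3% lower in 2iL, and 34.0% and 40.7% at 48 h. No test compares the 24 genes with these shares.

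By position, 213 of the 215 genes could be placed (RefSeq, GRCm38.p6, the same build as mm10), and chromosome 7 held 55 of them. Runs were defined as at least 5 of these genes whose starts lay no more than 500 kb apart, which gave 11 runs with 71 genes. In WT cells 36 of the 71 genes in runs fell and 10 rose, whereas of the 142 placed genes outside runs 33 fell and 33 rose. Over the genes at 3 FPKM or more 28.5% fell and 29.0% rose. The 36 falls include 13 in the 2 runs of chromosome 4 and 7 in 1 run of chromosome 7, described below. Of the same 71, 20 fell and 11 rose in Dgcr8-/- cells, against 30 and 27 of the 142 outside runs. At 48 h 32 of the 71 were higher in Dgcr8-/- cells and 17 lower, against 30 higher and 62 lower outside the runs. Interactions above 0 were 24 of 71 in runs and 23 of 142 outside, and those below 0 were 7 and 23. Over the genes at 3 FPKM or more 26.4% rose and 23.1% fell in Dgcr8-/- cells. At 48 h 34.0% were higher in Dgcr8-/- cells and 40.7% lower, and 22.9% and 19.6% had interactions above and below 0. The counts of single runs below stand beside the same shares. All these counts describe neighbours that may share sequence, which was compared only for the promoter windows below, and no test compares the counts.

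The 2 runs of chromosome 4, at chr4:145510759-146539395 with 6 genes and at chr4:147124882-147812229 with 8 genes, were lower at 48 h in WT cells almost as a whole. Of the 14 genes 13 fell in WT cells (median -0.75), and none rose; the exception was Zfp991 (-0.14, adjusted p = 0.39). In Dgcr8-/- cells 6 fell and none rose (median -0.18), and 4 to 7 fell under the other settings of the fit. Summed over the first run, WT cells had 158 and 151 FPKM in 2iL and 82.7 and 81.7 FPKM at 48 h, and Dgcr8-/- cells 159 and 157 and then 137 and 142 FPKM. The second run summed to 202 and 195 and then 100.2 and 106 FPKM in WT, and to 199 and 192 and then 163 and 163 FPKM in Dgcr8-/- cells. At 48 h 11 of the 14 were higher in Dgcr8-/- cells and none lower, and 11 had an interaction above 0 and none below. The backgrounds at 48 h were 34.0% higher and 40.7% lower, and those of the interaction 22.9% above and 19.6% below 0. The WT count of 13 was the same under all 16 other settings of the fit, and the interaction count was 11 or 12. Without these 14 genes, 58 of the other 201 fell and 43 rose in WT cells, and 37 and 30 had interactions above and below 0.

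Within these runs Zfp985 (chr4:147553277-147585201) fell most in WT cells, from 44.3 and 39.9 to 13.7 and 13.6 FPKM (-1.55, SE 0.06, adjusted p = 1.4e-06), and less in Dgcr8-/- cells, from 48.0 and 44.7 to 32.9 and 32.3 FPKM (-0.49, adjusted p = 0.00056; interaction 1.06, adjusted p = 0.00012). Zfp978 fell in WT cells from 38.5 and 37.1 to 15.5 and 15.4 FPKM (-1.24, adjusted p = 1.7e-06) and was at 32.4, 33.5, 33.6 and 36.1 FPKM in Dgcr8-/- libraries (0.08, adjusted p = 0.25; interaction 1.32, adjusted p = 2e-05). Zfp980 fell in WT cells from 15.6 and 14.3 to 7.87 and 7.14 FPKM (-0.91) and was at 12.1, 11.6, 12.7 and 12.7 FPKM in Dgcr8-/- libraries (interaction 1.00, adjusted p = 0.00025). Zfp981, the most abundant of the 14, went from 41.6 and 41.2 to 22.9 and 26.4 FPKM in WT and from 57.2 and 57.2 to 52.6 and 53.4 FPKM in Dgcr8-/- cells (interaction 0.62, adjusted p = 0.0015). The interactions of Zfp990, Zfp987, Zfp600, Zfp992, Zfp979, Zfp534 and Zfp984 were called at 0.40 to 0.84, and those of Zfp982, Zfp988 and Zfp991 were not.

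Other tested genes inside the runs, mostly predicted genes and pseudogenes, did not share the WT fall to the same extent: 3 of 10 fell and 1 rose in the first run, and 2 of 5 fell in the second. In 2iL, 7 of these 10 and all 5 of the second run were already higher in Dgcr8-/- cells, where the 14 Zfp genes had 3 higher and 5 lower. At 48 h 8 of the 10 (median 0.87) and all 5 (median 1.41) were higher in Dgcr8-/- cells, beside medians of 0.61 and 0.54 for the Zfp genes of the first and second run. Interactions above 0 were 2 of the 10 and 1 of the 5. Within 1 Mb of the first run, 13 of 16 more tested genes were higher at 48 h and 1 lower (median 1.06). Of these 16, 6 had an interaction above 0 and none below (median 0.32). Around the second run 13 of 28 were higher and 7 lower (median 0.15). Of these 28, 7 had an interaction above 0 and 2 below. The 5 Zfp genes lower in Dgcr8-/- cells in 2iL became 3 with median-ratio scaling. They became 4 with no filter, no intensity trend, quantile scaling or a replicate block, and the number also varied with the library left out. Zfp978 spans Zfp991 and Zfp988 in the annotation, and Zfp981 overlaps Zfp993. Neighbours in such clusters are often close copies of each other, so reads may be shared among them, although the transcripts were not compared here. The value of any single gene is therefore less certain than the sum of its run.

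The promoters of these chromosome 4 genes are shown because 13 of 14 neighbours fell in WT cells, and windows were found for 10 of the 14. All 10 hold the letters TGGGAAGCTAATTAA (capitals below), the longest run of letters common to all of them, which was searched for in these windows and so was chosen on them. It stood in windows of 12 of the 27025 genes (both strands), and the other 2 genes were Gm13212 and Rex2, also on chromosome 4. The 45 pairs of windows were 81.1% to 98.8% identical over their aligned bases, with a median of 91.2%. The windows below are on the plus strand of GRCm38.p6 at chr4:147553027-147553326, chr4:145670447-145670746 and chr4:146514670-146514969.
Zfp985: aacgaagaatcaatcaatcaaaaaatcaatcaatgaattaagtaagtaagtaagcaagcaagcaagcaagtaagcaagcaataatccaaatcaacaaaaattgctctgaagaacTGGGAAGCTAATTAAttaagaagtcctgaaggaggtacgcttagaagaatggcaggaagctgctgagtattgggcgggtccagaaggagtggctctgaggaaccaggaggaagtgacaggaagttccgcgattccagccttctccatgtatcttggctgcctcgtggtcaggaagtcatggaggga
Zfp980: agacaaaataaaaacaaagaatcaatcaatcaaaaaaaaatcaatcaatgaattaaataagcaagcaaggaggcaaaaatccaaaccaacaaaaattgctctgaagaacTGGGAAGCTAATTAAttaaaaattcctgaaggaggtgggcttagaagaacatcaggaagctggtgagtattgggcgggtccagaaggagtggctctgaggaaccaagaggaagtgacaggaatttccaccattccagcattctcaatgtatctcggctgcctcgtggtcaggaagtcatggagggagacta
Zfp981: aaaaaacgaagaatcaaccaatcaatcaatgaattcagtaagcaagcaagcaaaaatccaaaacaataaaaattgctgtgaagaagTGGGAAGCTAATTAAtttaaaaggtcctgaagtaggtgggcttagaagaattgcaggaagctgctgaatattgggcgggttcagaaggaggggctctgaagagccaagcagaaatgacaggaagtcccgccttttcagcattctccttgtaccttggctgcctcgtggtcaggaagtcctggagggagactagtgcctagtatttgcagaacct
All 10 genes have a window with a CCAAT box and 8 have one with a GC box. Rex2, which shares the letters without being a numbered Zfp gene, fell in WT cells from 5.30 and 5.64 to 2.67 and 2.53 FPKM (-0.85, adjusted p = 7.1e-05) and was at 5.57, 5.14, 4.91 and 4.82 FPKM in Dgcr8-/- libraries (interaction 0.73, adjusted p = 0.0016). Gm13212 fell in both genotypes (-0.38 and -0.31, interaction 0.06, adjusted p = 0.72). Of the 10 genes with the letters, Zfp982 and Zfp988 also had no called interaction (adjusted p = 0.098 and 0.18). Whether the letters play a part in these changes was not tested.

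A run of 8 genes at chr7:42473386-43618279 behaved in a similar way. In WT cells 7 of 8 fell and none rose, in Dgcr8-/- cells 5 fell, and 6 of 8 had an interaction above 0 and none below. The backgrounds were 28.5% falling in WT and 23.1% in Dgcr8-/- cells, and 22.9% with an interaction above 0. Its sum went from 67.8 and 64.2 to 27.3 and 28.9 FPKM in WT cells and from 72.7 and 71.7 to 58.5 and 58.3 FPKM in Dgcr8-/- cells. Of the 8 other genes tested inside this run, 4 fell and 1 rose in WT cells (median -0.55, beside -0.91 for the Zfp genes). Their interactions were above 0 in 3 and below 0 in 1, with a median of 0.49 beside 0.59 for the Zfp genes. Of 20 more tested genes within 1 Mb of the run, 9 fell and 6 rose in WT cells. Among these 20, 7 had an interaction above 0 and 3 below (median 0.32). The changes were thus not particular to the Zfp genes. Zfp977 (chr7:42579397-42592545) fell in WT cells from 8.01 and 7.65 to 1.07 and 1.60 FPKM (-1.93, SE 0.12, adjusted p = 9.2e-06) and was at 9.49, 10.1, 9.72 and 8.85 FPKM in Dgcr8-/- libraries (-0.07, adjusted p = 0.63; interaction 1.86, adjusted p = 0.00015). Zfp936 (chr7:43114166-43192109) fell in WT cells from 10.8 and 11.2 to 2.86 and 3.45 FPKM (-1.53, adjusted p = 4.9e-06) and was at 13.3, 13.0, 14.9 and 14.3 FPKM in Dgcr8-/- libraries (0.14, adjusted p = 0.2; interaction 1.67, adjusted p = 5.2e-05). Zfp975 was intermediate, at 4.90 and 4.92 and then 1.69 and 1.95 FPKM in WT and 7.38 and 7.48 and then 5.86 and 5.79 FPKM in Dgcr8-/- cells (interaction 0.76, adjusted p = 0.0013). Zfp819, at the end of the run, fell in both genotypes as given above, and Zfp715 fell in both (-0.60 and -0.55, interaction 0.05, adjusted p = 0.83). The interaction of Zfp976 (0.39, adjusted p = 0.027) was lost in 6 of the 8 fits without 1 library, all but those without Dgcr8-/- 2iL library 1 and WT 2iL library 2 (adjusted p up to 0.088). The Dgcr8-/- falls of Zfp975 and Zfp719 were each lost in 3 of 8, Zfp975 without Dgcr8-/- 2iL library 2 or either Dgcr8-/- 48 h library and Zfp719 without either Dgcr8-/- 2iL library or Dgcr8-/- 48 h library 1 (adjusted p up to 0.065 and 0.16).

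The windows of Zfp977 (minus strand, chr7:42592496-42592795) and Zfp936 (plus strand, chr7:43177340-43177639) are shown because these genes changed alike and lie apart in the run. They were 92.9% identical over 295 aligned bases, and the capitals mark the longest stretch they share, of 70 bases. Neither holds the octamer or the letters of the chromosome 4 windows.
Zfp977: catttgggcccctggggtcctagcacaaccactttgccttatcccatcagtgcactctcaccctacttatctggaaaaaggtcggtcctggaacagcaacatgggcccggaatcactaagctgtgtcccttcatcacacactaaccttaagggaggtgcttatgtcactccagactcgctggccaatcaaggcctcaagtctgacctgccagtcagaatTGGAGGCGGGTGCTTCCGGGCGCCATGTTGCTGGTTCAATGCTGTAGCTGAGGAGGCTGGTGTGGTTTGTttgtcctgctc
Zfp936: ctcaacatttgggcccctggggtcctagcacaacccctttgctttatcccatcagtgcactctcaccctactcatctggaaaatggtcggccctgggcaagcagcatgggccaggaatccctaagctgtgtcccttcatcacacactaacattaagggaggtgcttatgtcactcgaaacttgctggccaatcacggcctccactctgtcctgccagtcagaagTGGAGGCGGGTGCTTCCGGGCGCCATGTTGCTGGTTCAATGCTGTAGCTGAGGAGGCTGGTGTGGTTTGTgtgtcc

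**Figure D3:**
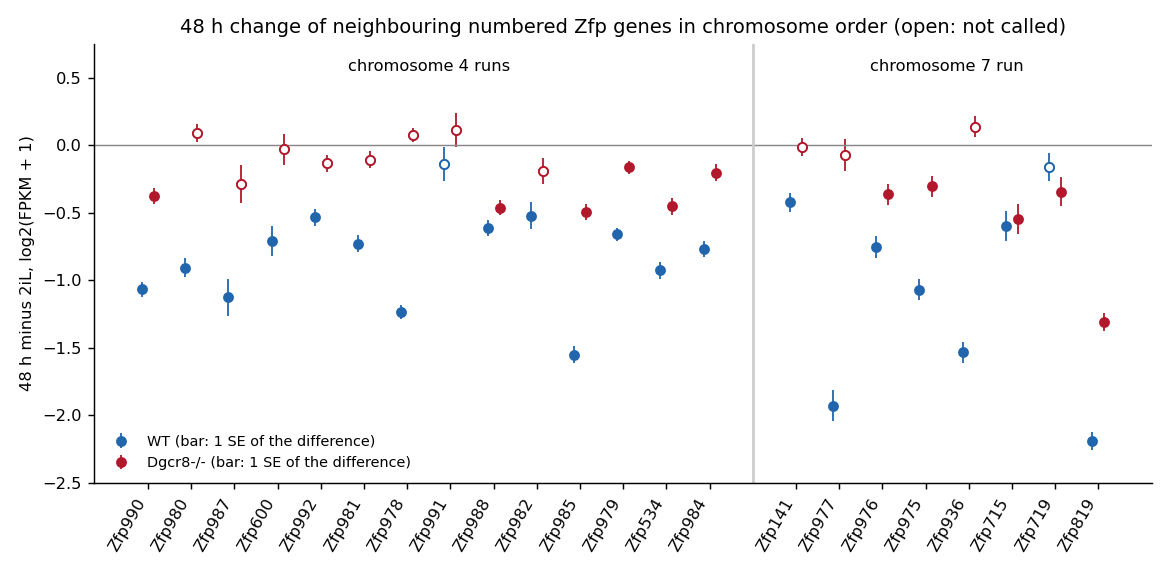
Points are the 48 h minus 2iL differences in log2(FPKM + 1) of the 22 genes in the 2 runs of chromosome 4 and the run of chromosome 7, in chromosome order, for WT (blue) and Dgcr8-/- cells (red), with bars of 1 SE; open points were not called. All WT points but Zfp991 and Zfp719 were called below 0, and most Dgcr8-/- points lay nearer to 0.

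A run of 5 genes at chr6:47920568-48445992 held Zfp467 and Zfp956, which reached the level limit only through the WT 48 h libraries. With both counted, 3 of 5 were called higher at 48 h in WT cells and 4 had an interaction below 0; these counts are partly fixed by that limit and support nothing. The 3 others were Zfp212, Zfp746 and Zfp777. Zfp467 (chr6:48427692-48445992), a factor of osteoblast and fat-cell differentiation, had 1.57 and 1.66 FPKM in WT cells in 2iL and 9.93 and 11.2 FPKM at 48 h, and 0.341 and 0.128 and then 1.90 and 2.09 FPKM in Dgcr8-/- cells. Its WT difference was 2.14, with no test for the reason given. Zfp467 rose in Dgcr8-/- cells by 1.28 (SE 0.11, adjusted p = 9.4e-05) and was lower in Dgcr8-/- than in WT cells in 2iL (-1.09, adjusted p = 0.00013). Its interaction of -0.86 turned to 0.09 with 0.1 in place of 1 added to FPKM, and its Dgcr8-/- 2iL values were below 1 FPKM. Zfp956 had 3.03 and 3.75 and then 6.85 and 6.93 FPKM in WT cells and 1.81, 2.12, 1.64 and 1.37 FPKM in Dgcr8-/- libraries, with differences of 0.85 in WT cells and -1.09 for the interaction, again with no test. Zfp777 fell in Dgcr8-/- cells from 8.43 and 9.61 to 5.35 and 6.08 FPKM (-0.58, adjusted p = 0.0018) with no change called in WT cells (0.00, adjusted p = 0.98). The interaction of Zfp746 (-0.47, adjusted p = 0.02) was lost in 4 of the 8 fits without 1 library (WT 2iL library 1, WT 48 h library 2, Dgcr8-/- 2iL library 2 and Dgcr8-/- 48 h library 1, adjusted p up to 0.073).

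Of the 7 remaining runs, that at chr7:24081877-24515682 with Zfp428 had 4 of 5 genes fall in WT cells and 1 interaction above 0 (backgrounds 28.5% and 22.9%). On chromosome 13 (chr13:67405033-67789082) only Zfp459 of 6 genes fell in WT cells, from 11.7 and 11.9 to 2.25 and 2.13 FPKM (-2.003, SE 0.07, adjusted p = 6.2e-07), and it fell less in Dgcr8-/- cells, from 10.3 and 9.66 to 5.72 and 5.98 FPKM (-0.68, adjusted p = 0.00018; interaction 1.32, adjusted p = 6.7e-05). Zfp459 overlaps Zfp874a. On chromosome 17 (chr17:21565816-22361428) Zfp229, described below with the genotype differences, fell in WT cells while its neighbour Zfp942 rose. Zfp942 rose in WT cells from 4.27 and 3.42 to 5.26 and 5.23 FPKM (0.37, adjusted p = 0.017) and fell in Dgcr8-/- cells from 5.48 and 5.03 to 2.77 and 3.04 FPKM (-0.68, adjusted p = 0.0014; interaction -1.05). The WT rise of Zfp942 was lost without WT 2iL library 2 or either WT 48 h library (adjusted p up to 0.088).

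Setting the 48 h changes of the 2 genotypes side by side, which share no library, 36 of the 71 genes that fell in WT cells also fell in Dgcr8-/- cells, 2 rose and 33 were not called. The 36 genes were 50.7% of the WT falls and 72.0% of the 50 Dgcr8-/- falls. Over the genes at 3 FPKM or more these shares were 46.6% and 57.5%. Of the 43 that rose in WT cells 17 rose and 3 fell in Dgcr8-/- cells, or 39.5% and 44.7% of the 2 lists, against 48.2% and 53.1% of the genes at 3 FPKM or more.

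Zfp553 (chr7:127233061-127238197) fell in both genotypes, from 41.5 and 39.9 to 16.7 and 16.05 FPKM in WT cells (-1.26, SE 0.04, adjusted p = 6.8e-07) and from 74.8 and 75.1 to 32.0 and 31.9 FPKM in Dgcr8-/- cells (-1.21, adjusted p = 1.8e-06), with an interaction of 0.06 (adjusted p = 0.49). Its level was 0.87 higher in Dgcr8-/- cells in 2iL and 0.92 higher at 48 h. Zfp59 fell in both but less in Dgcr8-/- cells, from 10.4 and 9.92 to 2.51 and 2.87 FPKM and from 8.95 and 9.25 to 5.09 and 4.91 FPKM (-1.60 and -0.75, interaction 0.85, adjusted p = 0.00079). Zfp428, the third most abundant gene, fell from 93.1 and 96.2 to 40.2 and 39.1 FPKM in WT cells (-1.23, adjusted p = 1.9e-06) and from 86.7 and 95.3 to 76.6 and 75.6 FPKM in Dgcr8-/- cells (-0.25, adjusted p = 0.0061; interaction 0.98, adjusted p = 7.9e-05). Zfp989 went from 22.4 and 17.3 to 7.96 and 8.03 FPKM in WT cells and stayed at 26.9, 21.4, 26.3 and 25.1 FPKM in Dgcr8-/- libraries (interaction 1.30, adjusted p = 0.0015). Zfp74, next to Zfp568 on chromosome 7, fell in WT cells from 7.65 and 7.16 to 4.86 and 4.60 FPKM and rose in Dgcr8-/- cells from 11.5 and 11.2 to 15.6 and 15.7 FPKM (-0.55 and 0.43, interaction 0.98, adjusted p = 0.00017).

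Among genes that rose in WT cells, Zfp664 went from 19.1 and 19.3 to 36.4 and 37.6 FPKM (0.91, SE 0.05, adjusted p = 6.8e-06) and from 12.7 and 13.5 to 17.7 and 17.2 FPKM in Dgcr8-/- cells (0.39; interaction -0.52, adjusted p = 0.0012). Zfp422 and Zfp275 rose in WT cells by 0.62 and 0.61 and were not called in Dgcr8-/- cells (-0.02 and 0.01; interactions -0.63 and -0.60, adjusted p = 0.0023 and 0.0054). Zfp692, which overlaps Zfp672, rose in WT cells by 0.61 and was at 7.95 to 9.48 FPKM in Dgcr8-/- libraries (interaction -0.46, adjusted p = 0.0072). The Dgcr8-/- rises with the largest values, beyond those of the developmental genes and of Zfp467 and Zfp462, were Zfp358 (0.82), Zfp90 (0.82), Zfp652 (0.62), Zfp580 (0.58) and Zfp113 (0.56). Of these, Zfp90, Zfp652, Zfp580 and Zfp113 had an interaction that was not called (adjusted p from 0.06 to 0.51). The interaction of Zfp358 was 0.24, with no test, since this gene reached the level limit only through WT 48 h. The rise of Zfp580 was lost without library 1 of either Dgcr8-/- group (adjusted p = 0.095 and 0.1).

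Falls in Dgcr8-/- cells that WT cells did not match were led by Zfp970 on chromosome 2, at 6.73, 5.78, 6.55 and 5.84 FPKM in WT libraries and 9.80 and 10.9 and then 4.96 and 4.54 FPKM in Dgcr8-/- libraries (-0.98, adjusted p = 0.00019; interaction -0.97, adjusted p = 0.0014). Zfp971, on the same chromosome, fell in Dgcr8-/- cells from 9.19 and 9.01 to 3.40 and 4.15 FPKM (-1.09) and in WT cells from 5.69 and 5.99 to 3.80 and 2.97 FPKM (-0.65), and the interaction was not called (-0.44, adjusted p = 0.067). Zfp655 fell in Dgcr8-/- cells by 0.74 (interaction -0.56, adjusted p = 0.0066). Zfp444 rose in WT cells by 0.33 and fell in Dgcr8-/- cells by 0.40 (interaction -0.72, adjusted p = 0.0014).

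**Figure D4:**
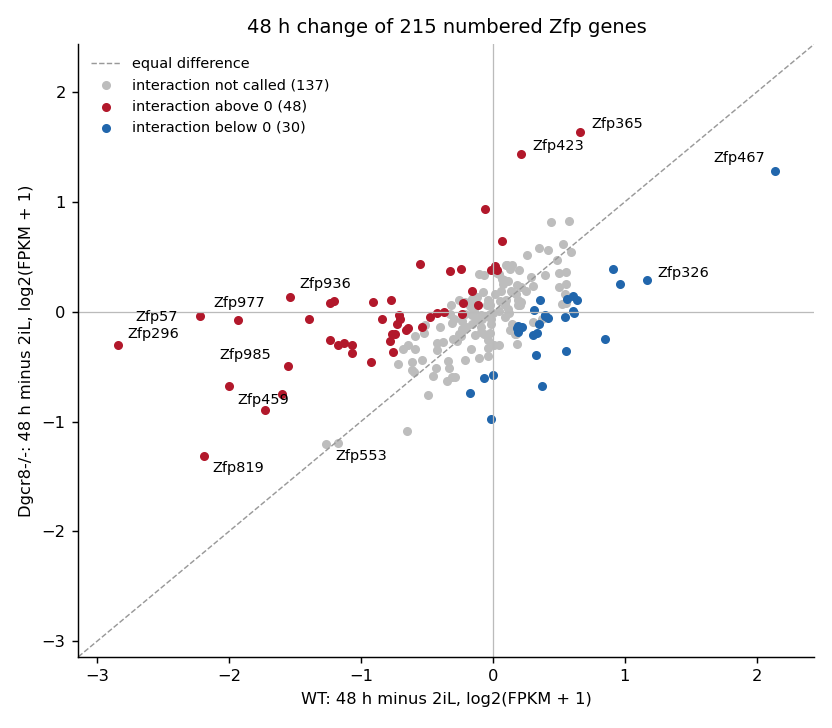
Each point is 1 of the 215 genes, with its 48 h minus 2iL difference in log2(FPKM + 1) in WT cells on the x axis and in Dgcr8-/- cells on the y axis; red and blue mark 48 interactions above and 30 below 0. Zfp296, Zfp57 and Zfp977 lie far to the left and near 0 on the y axis, while Zfp553 lies on the line of equal change.

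Between genotypes, Zfp229 (chr17:21730955-21748969) differed most. It had 8.79 and 10.4 FPKM in WT cells in 2iL and 3.599 and 2.54 FPKM at 48 h, against 47.3, 43.4, 43.5 and 43.1 FPKM in the Dgcr8-/- libraries. The lowest Dgcr8-/- library was above the highest WT library at both times. The difference was 2.13 in 2iL (SE 0.13, adjusted p = 1.2e-05) and 3.46 at 48 h (SE 0.13, adjusted p = 7e-07), and the gene fell in WT cells by 1.39 (adjusted p = 8.4e-05) with no call in Dgcr8-/- cells (-0.06, adjusted p = 0.71). Zfp367 had 8.17, 6.57, 4.42 and 5.26 FPKM in WT and 24.5, 23.6, 20.3 and 23.7 FPKM in Dgcr8-/- libraries (1.59 and 1.98, adjusted p = 2.9e-05 and 6.1e-06). Its WT fall (-0.52, adjusted p = 0.0082) was lost without WT 48 h library 1 (-0.41, adjusted p = 0.05).

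Zfp236 and Zfp951 were higher in Dgcr8-/- cells in 2iL by 0.89 and 0.82 and at 48 h by 1.29 and 1.19 (adjusted p at most 6.6e-05). Zfp397 was higher in 2iL by 0.76 (adjusted p = 0.00011). Zfp986, which reached the level limit only through Dgcr8-/- 2iL, had 2.56 and 2.56 against 5.48 and 4.84 FPKM there (0.79, no test). The interactions of Zfp236 (0.40, adjusted p = 0.026) and Zfp397 (-0.33, adjusted p = 0.043) were lost in 5 and 6 of the 8 fits without 1 library. For Zfp236 these were the fits without either WT 48 h library, WT 2iL library 1, Dgcr8-/- 2iL library 1 or Dgcr8-/- 48 h library 2 (adjusted p up to 0.087), and for Zfp397 all but those without library 1 of either 2iL group (adjusted p up to 0.13).

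Zfp358 was the gene most reduced in Dgcr8-/- cells in 2iL, with 4.43 and 4.86 against 0.791 and 0.918 FPKM (-1.61, SE 0.10, adjusted p = 1.1e-05), and it had 7.78 and 7.09 against 2.12 and 2.45 FPKM at 48 h (-1.36, with no test, since the WT 48 h libraries brought it over the level limit). Zfp961 had 45.4, 44.0, 34.2 and 29.6 FPKM in WT and 17.6, 18.8, 17.5 and 17.6 FPKM in Dgcr8-/- libraries (-1.26 and -0.82, adjusted p = 9.2e-06 and 3.8e-05). Zfp239 (8.92, 5.62, 7.17 and 7.25 against 2.83, 1.89, 2.55 and 2.90 FPKM) and Zfp580 (5.24, 6.44, 7.05 and 8.37 against 1.56, 2.40, 3.65 and 3.20 FPKM) were lower in both conditions. Zfp707 was lower by 1.14 in 2iL and 0.52 at 48 h on the log2 scale, and its neighbour Zfp623 on chromosome 15 by 0.78 and 1.22. The interaction of Zfp707 (0.63, adjusted p = 0.018) was lost in 3 of the 8 fits (library 1 of either WT group and Dgcr8-/- 48 h library 2, adjusted p up to 0.063), and that of Zfp623 (-0.45, adjusted p = 0.02) in 4 (WT 2iL library 2, either WT 48 h library and Dgcr8-/- 48 h library 1, adjusted p up to 0.067). Zfp787 was lower at 48 h by 1.13 on the log2 scale (adjusted p = 3e-05). The 48 h difference of Zfp605 was -1.14, with no test, since it reached the level limit only through WT 48 h.

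The genotype differences in 2iL and at 48 h share no library. Of the 75 genes lower in Dgcr8-/- cells in 2iL, 55 were lower and 6 higher at 48 h, or 73.3% of the first and 69.6% of the second list. Of the 42 higher in 2iL, 27 were higher and 5 lower at 48 h, or 64.3% and 42.2%. Over the genes at 3 FPKM or more the same shares were 76.4% and 70.1% for lower and 73.1% and 65.3% for higher genes. Among the genes called higher in Dgcr8-/- cells at 48 h and not called in 2iL were Zfp57, Zfp296, Zfp977 and Zfp989.

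**Figure D5:**
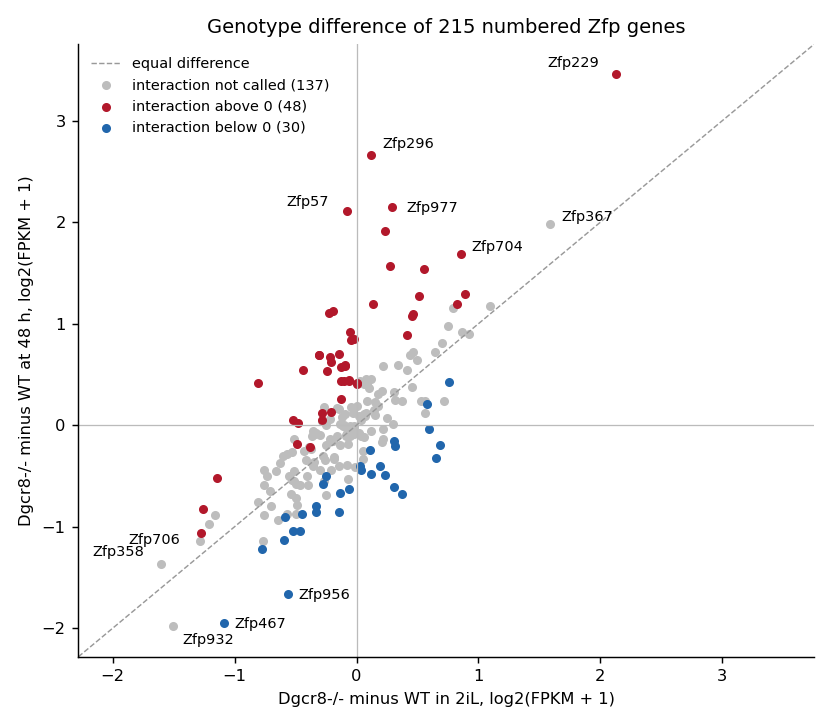
Each point is 1 of the 215 genes, with its Dgcr8-/- minus WT difference in log2(FPKM + 1) in 2iL on the x axis and at 48 h on the y axis; red and blue mark interactions above and below 0. Zfp229 is high on both axes, Zfp296, Zfp57 and Zfp977 are near 0 in 2iL and above 2 at 48 h, and Zfp358 and Zfp932 are low on both.

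Overlap with another protein-coding gene was annotated for 28 of the 215 genes, such as Zfp809 with Zfp599, Zfp445 with Zkscan7, Zfp740 with Csad and Zfp706 with a predicted locus. The libraries were made by a dUTP protocol, which marks strand, but the sources used here do not say whether counting used strand, so reads of such pairs cannot be told apart.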

How the data were processed

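Total RNA of 8 libraries (4 groups of 2) was used, and the 8 small RNA libraries of the 16 samples were not used here. The authors deposited a table of FPKM values per gene; per the submitters' processing notes STAR 2.5.0, Cufflinks 2.2.1 and the mm10 build were named, and per the labels' protocols the libraries were made by a dUTP method. FPKM holds no read counts, so depth is unknown and no interval from counts was given. Summed FPKM was 475271 to 548453 per library, 11415 to 12030 genes were at 1 FPKM or more, and replicates correlated at 0.976 to 0.985 across genes.

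Gene names were matched by Ensembl identifier for 40124 of 41258 entries. The 13172 genes that reached 1 FPKM in 2 or more libraries were fitted with limma 3.58.1 (R 4.3.3, intensity trend) as 4 group means of log2(FPKM + 1), where 1 is the pseudocount and low genes have understated differences. P-values were adjusted by Benjamini-Hochberg over all genes tested. The fit was tested on simulated data. The genes and lists were chosen with earlier results of these data known, so counts over lists carry no test. Named were all genes of the 5 role lists, per comparison up to 10 higher and 10 lower genes with the largest called differences and groups that did not overlap (interaction: largest called), the 5 most abundant, 3 on each side of the level limit, and the genes of runs. Promoter windows came from RefSeq (GRCm38.p6). Protein sequences were not analysed here. Alternatives were pseudocounts of 0.1 and 0.5, no filter, a mean of 5 FPKM as filter, no intensity trend, median-ratio and quantile scaling, a replicate block, leaving out each library, and level limits of 5 and 1 FPKM.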

Additional observations from a re-analysis of the deposited data

Results flagged for a closer look

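The genes below are the named ones with this result, 60 of the 78 with a called interaction, and were singled out because their 48 h change differed between Dgcr8-/- and WT cells by the interaction test (limma, adjusted p under 0.05). Each value is the Dgcr8-/- change minus the WT change on the log2(FPKM + 1) scale, so a value above 0 means a smaller fall or a larger rise in Dgcr8-/- cells. In the chromosome 4 runs the values were Zfp978 1.32, Zfp985 1.06, Zfp980 1.00, Zfp987 0.84, Zfp990 0.69, Zfp600 0.68, Zfp981 0.62, Zfp984 0.56, Zfp979 0.50, Zfp534 0.47 and Zfp992 0.40. In the chromosome 7 run around Zfp977 they were Zfp977 1.86, Zfp936 1.67, Zfp819 0.88, Zfp975 0.76, Zfp141 0.41 and Zfp976 0.39.

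Among the other named genes above 0 the larger values were Zfp296 2.54, Zfp57 2.18, Zfp229 1.33, Zfp459 1.32, Zfp989 1.30, Zfp423 1.23, Zfp516 1.00, Zfp74 0.98, Zfp365 0.98, Zfp428 0.98, Zfp59 0.85 and Zfp704 0.83. The smaller ones were Zfp568 0.70, Zfp707 0.63, Zfp462 0.57, Zfp961 0.43, Zfp236 0.40, Zfp638 0.40, Zfp951 0.37, Zfp830 0.34, Zfp706 0.21 and Zfp207 0.17. In the chromosome 6 run the values below 0, of which Zfp467 and Zfp956 follow in part from the level limit, were Zfp746 -0.47, Zfp777 -0.58, Zfp467 -0.86 and Zfp956 -1.09. The other named values below 0, with the same limit for Zfp36, were Zfp445 -0.25, Zfp219 -0.32, Zfp397 -0.33, Zfp623 -0.45, Zfp692 -0.46, Zfp664 -0.52, Zfp609 -0.54, Zfp787 -0.54, Zfp655 -0.56, Zfp275 -0.60, Zfp422 -0.63, Zfp36 -0.71, Zfp444 -0.72, Zfp326 -0.88, Zfp687 -0.91, Zfp970 -0.97 and Zfp942 -1.05. Those lost on leaving out 1 library are given with the results above or, for Zfp787, without WT 48 h library 2 or Dgcr8-/- 48 h library 1 (adjusted p = 0.051 and 0.053).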

How the results depend on the processing

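FPKM values with 2 libraries per group limit what small differences among low genes can show, and near-identical copies share reads. The Dgcr8-/- rises numbered 23 in place of 38 both with a filter at a mean of 5 FPKM and with a level limit of 5 FPKM, which leave 147 genes, and interactions below 0 numbered 48 in place of 30 with a level limit of 1 FPKM, which gives 297 genes. The direction turned for Zfp428 between genotypes in 2iL (0.15, adjusted p = 0.0072, quantile scaling) and for the interaction of Zfp467 (0.090, pseudocount 0.1). That interaction was -0.60 with a pseudocount of 0.5, and it carries no test because of the level limit. Without 1 library the WT rises numbered 34 to 46 and falls 59 to 72, the Dgcr8-/- rises 26 to 37 and falls 35 to 50, genes higher in Dgcr8-/- cells in 2iL 34 to 44 and lower 65 to 74, higher at 48 h 55 to 67 and lower 68 to 79, and interactions above 0 38 to 53 and below 0 22 to 29. With the replicate number as a replicate block the counts of higher and lower genes were 43 and 69 in WT, 36 and 51 in Dgcr8-/- cells, 42 and 72 in 2iL, 66 and 80 at 48 h, and 44 and 27 for the interaction. The difference between libraries 1 and 2 of a group, taken gene by gene, correlated at -0.127 to 0.189 between groups (genes at 3 FPKM or more). No label ties libraries of the same number, so the numbers were not taken as pairs. Median-ratio scaling gave 51 higher and 65 lower in 2iL and 76 and 68 at 48 h, and quantile scaling 36 and 90, and 60 and 81. Of the calls for 98 named genes, 59 of 66 (WT), 40 of 50 (Dgcr8-/-), 52 of 64 (2iL), 70 of 77 (48 h) and 46 of 60 (interaction) held under every alternative run.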
